A study of Rattus norvegicus with 7 samples.

Results

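The choroid plexus is the tissue in the brain's ventricles whose epithelium secretes cerebrospinal fluid and forms the barrier between blood and that fluid. Its epithelial cells move ions, bicarbonate and water into the ventricle, carry vitamins and hormones across, and release proteins into the fluid. Transcripts of 8 genes known for high expression in this epithelium were followed library by library in rat hippocampus and hypothalamus, which both lie beside ventricles. The 8 symbols were Ttr, Enpp2, Clic6, Kl, Slc4a5, Aqp1, Prlr and Folr1. They were picked by name, with their hippocampal levels in these libraries already known, so their levels and spread in hippocampus are a description and were not tested. At 1 locus per symbol, 7 of them were read among 16153 symbols in hippocampus and 8 among 16163 in hypothalamus, and Folr1 was not analysed in hippocampus here.

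The study examined dietary the omega-3 fatty acid DHA (docosahexaenoic acid), a component of brain membranes, in male Sprague Dawley rats that were 2 months old at the start. Both groups used here had DHA in the diet for 6 weeks, with tissue taken after decapitation, and they comprise 4 hippocampus libraries and 3 hypothalamus libraries. Chow-fed libraries were not analysed here, so no diet effect was estimated, and the labels do not say whether the same rats gave both tissues. Nothing in the labels says whether replicates of a tissue were separate animals, so the spread between them may be technical. All values are FPKM (fragments per kilobase of transcript, adjusted for library size), a scale per transcript length on which levels of different genes can be set side by side. In bulk tissue, fewer cells of a type and less RNA per cell cannot be told apart.

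The markers of each tissue were read first. Between tissues a symbol was called where the libraries did not overlap and the means differed by 2-fold or more after rescaling. All 6 hippocampal markers were called higher in hippocampus, as were 14.5% of all symbols, and all 6 hypothalamic neuropeptide markers higher in hypothalamus, as were 13.4% of all symbols. Summed FPKM ran from 363950 to 384523 in hippocampus and from 442119 to 470001 in hypothalamus, and the depth behind these values is unknown. Replicate 1 of each tissue stood apart, with 105 symbols (1.02% of those tested) in hippocampus and 60 (0.558%) in hypothalamus at least 4-fold below every other library of the tissue. With the loci of a symbol summed these counts were 17 and 19, so the distance of replicate 1 depended on taking 1 locus per symbol. None of the 8 choroid plexus genes was among them.

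Upstream sequences are printed for 3 genes whose hippocampal profiles lay close together, to show what precedes their start sites. They come from RefSeq for the rat assembly GRCr8, plus strand, 5′ to 3′, and each is the 250 bases before the annotated start. The windows are chr4:85812534-85812783 for Aqp1, chr4:117283044-117283293 for Slc4a5 and chr12:5325753-5326002 for Kl. Capitals mark a TATAAA match in Aqp1 and CCAAT matches, on either strand, in Slc4a5.
Aqp1: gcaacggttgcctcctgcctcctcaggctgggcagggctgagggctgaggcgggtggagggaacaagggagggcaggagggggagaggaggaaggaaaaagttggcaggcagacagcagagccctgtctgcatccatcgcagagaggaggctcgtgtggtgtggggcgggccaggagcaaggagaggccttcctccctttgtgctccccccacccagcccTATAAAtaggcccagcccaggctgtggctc
Slc4a5: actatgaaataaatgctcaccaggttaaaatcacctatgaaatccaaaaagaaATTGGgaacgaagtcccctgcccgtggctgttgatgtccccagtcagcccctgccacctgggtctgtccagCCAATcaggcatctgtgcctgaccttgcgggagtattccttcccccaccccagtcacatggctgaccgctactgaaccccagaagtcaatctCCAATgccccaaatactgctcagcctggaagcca
Kl: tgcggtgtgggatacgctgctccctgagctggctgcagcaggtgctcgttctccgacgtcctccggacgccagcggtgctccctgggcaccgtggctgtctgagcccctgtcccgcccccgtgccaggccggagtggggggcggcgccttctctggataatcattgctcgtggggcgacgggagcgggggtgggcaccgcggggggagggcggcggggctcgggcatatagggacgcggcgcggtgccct

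RefSeq promoter windows of 300 bases, which run 50 bases past the start, were matched for 5 of the 8 genes (Ttr, Kl, Slc4a5, Aqp1 and Prlr, the last with 2 windows). Each motif was searched on both strands. The TATA box letters TATAAA were in 1 of these 6 windows, that of Aqp1, 30 bases before its start, against 14.2% of all 33469 rat windows. CCAAT was in 2 of the 6, those of Slc4a5 and Ttr, against 37.5% of all windows, and Slc4a5 held it at 197, 126 and 34 bases before its start. The OTX2 core TAATCC, bound by a homeodomain factor of choroid plexus epithelium, was in 0 of the 6 against 7.17% of all windows. The forkhead core TGTTTAC was in 0 of the 6 against 3.78%, and the E-box CACGTG in 0 of the 6 against 6.42%. An absent match says only that these letters are not in these windows. Over the 250 bases before the start, GC content was 65.2% for Aqp1, 52.8% for Slc4a5, 73.2% for Kl, 40.4% for Ttr and 55.2% and 45.6% for the windows of Prlr, and the median over the same 250 bases of all windows was 51.2%.

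The choroid plexus genes were high in 3 of the 4 hippocampus libraries and low in replicate 2. Every one of the 7 genes had its lowest value in replicate 2 and its highest in replicate 3. The secreted carrier Ttr (transthyretin, which carries thyroxine and retinol-binding protein in the cerebrospinal fluid) read 4651, 31.9, 5771 and 1967 FPKM in replicates 1 to 4. That put Ttr first of all symbols in replicates 1 and 3 and 7th in replicate 4, but at rank 2358 in replicate 2. Its mean was 3105 ± 2597 FPKM (SD, n = 4), and replicate 3 was 181-fold above replicate 2. Enpp2, the secreted enzyme autotaxin that makes lysophosphatidic acid and is also made by oligodendrocytes, read 334, 92.5, 758 and 548 FPKM, a mean of 433 ± 285 (SD, n = 4). Its spread was the smallest of the 7 as a fold, at 8.19 between replicates 3 and 2.

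**Figure D1:**
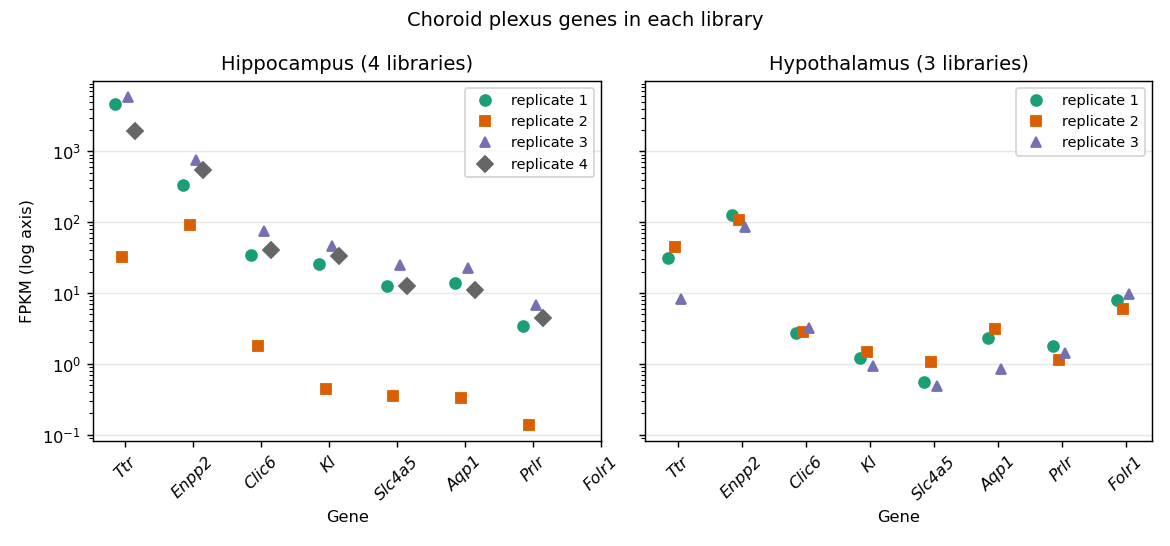
FPKM on a log axis of each choroid plexus gene, 1 point per library, in hippocampus (4 libraries) and hypothalamus (3 libraries). In hippocampus replicate 2 lies lowest for all 7 genes plotted and replicate 3 highest, from Ttr at 31.9 and 5771 FPKM to Prlr at 0.137 and 6.86 FPKM.

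Among the transporters and channels, Slc4a5, a sodium bicarbonate cotransporter, read 12.6, 0.355, 24.6 and 12.7 FPKM, a mean of 12.6 ± 9.92 (SD, n = 4). The water channel Aqp1, which lies in the apical membrane of the epithelium, read 14.0, 0.327, 22.6 and 11.1 FPKM, a mean of 11.99 ± 9.18 (SD, n = 4). Clic6, a chloride intracellular channel protein, read 34.2, 1.76, 75.1 and 40.1 FPKM, a mean of 37.8 ± 30.0 (SD, n = 4). In each of these 3 genes replicate 2 lay far below the other 3 libraries, and the next-lowest library was 35.5-fold above it for Slc4a5, 33.8-fold for Aqp1 and 19.5-fold for Clic6. In RefSeq, Slc4a5 overlaps a long noncoding RNA, and whether counting used strand is not given in the sources used here, so fragments of the pair cannot be told apart.

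The receptors, too, were lowest in replicate 2 and highest in replicate 3. Kl (klotho, a co-receptor for the hormone FGF23) read 25.8, 0.442, 45.5 and 33.4 FPKM, a mean of 26.3 ± 19.0 (SD, n = 4). Its next-lowest library was 58.3-fold above replicate 2. Prlr, the prolactin receptor, read 3.40, 0.137, 6.86 and 4.43 FPKM, a mean of 3.71 ± 2.79 (SD, n = 4), and its next-lowest library was 24.8-fold above replicate 2. Over the other 3 libraries alone, the highest value was 1.77-fold (Kl) to 2.93-fold (Ttr) above the lowest. Together the 7 genes made up 1.39%, 0.0331%, 1.83% and 0.685% of the summed FPKM of replicates 1 to 4.

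On the log2(FPKM + 1) scale, where folds of low genes are understated, the distance between highest and lowest hippocampal library was 7.45 for Ttr, 5.01 for Kl, 4.79 for Clic6, 4.24 for Slc4a5, 4.15 for Aqp1, 3.02 for Enpp2 and 2.79 for Prlr. The median of these 7 ranges was 4.24. Over the 10309 hippocampal symbols whose mean reached 1 FPKM, the median range was 0.51 and the 95th percentile 1.39. All 7 genes passed that minimum, and Kl, Slc4a5, Aqp1 and Prlr were below 1 FPKM in replicate 2 itself. The mean over the 7 genes was 5.75, 2.09, 6.58 and 5.76 in replicates 1 to 4, so replicates 1 and 4 were nearly level.

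Within a library, the ratios among the genes differed as well. Without replicate 2, replicates 1 and 4 differed most in Ttr, which was 2.37-fold higher in replicate 1. Slc4a5 was 0.992 times and Aqp1 1.27 times as high in replicate 1 as in replicate 4, while Clic6 was 0.853 times, Kl 0.770 times, Prlr 0.769 times and Enpp2 0.610 times as high. These 7 ratios span 1.95 on the log2 scale, and 1.05 without Ttr. Over all symbols, 5% of ratios of replicate 1 to replicate 4 lay below -1.02 and 5% above 1.14 on that scale, so the Ttr ratio was just outside this interval and the other 6 inside. Replicate 3 was above replicate 4 by 1.36-fold (Kl) to 2.93-fold (Ttr), and above replicate 1 by 1.24-fold (Ttr) to 2.27-fold (Enpp2).

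**Figure D2:**
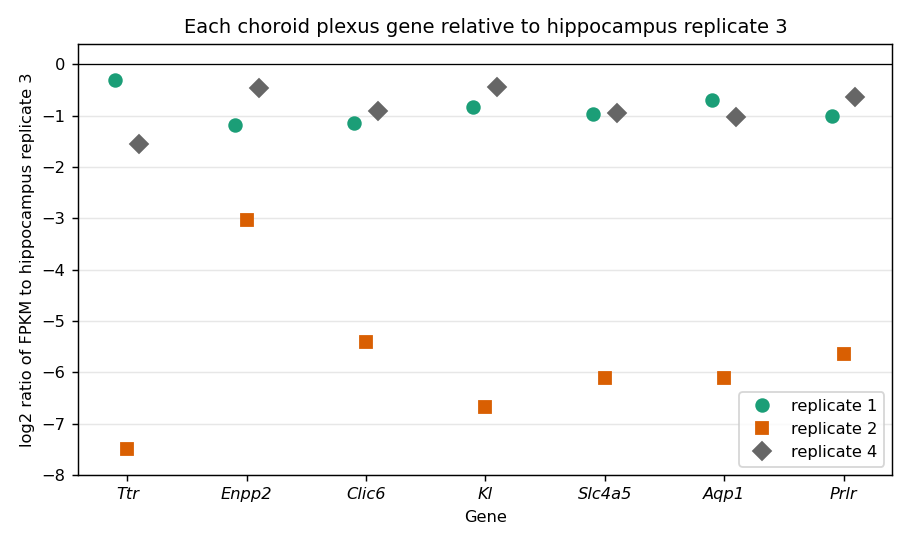
log2 ratio of each gene's FPKM in hippocampus replicates 1, 2 and 4 to its FPKM in replicate 3, 1 point per gene and library, with the line at 0 marking replicate 3. Replicates 1 and 4 lie between -0.31 and -1.55, and replicate 2 between -3.03 for Enpp2 and -7.50 for Ttr.

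The place of Ttr relative to the others was also different in replicate 2. There Ttr was 0.345 times the level of Enpp2, against 13.9, 7.62 and 3.59 times in replicates 1, 3 and 4. Relative to Clic6, Ttr stood at 18.2 times in replicate 2 and at 136, 76.9 and 49.0 times in replicates 1, 3 and 4. Relative to Kl, its 72.2 times in replicate 2 lay between the 58.8 times of replicate 4 and the 181 times of replicate 1.

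Symbols at least 4-fold below every other library of their tissue on the log2(FPKM + 1) scale were counted to set these values against the whole transcriptome. In hippocampus replicate 2 there were 17 such symbols of 10309, or 0.165%, and 5 of the 7 choroid plexus genes were among them (Ttr, Kl, Clic6, Slc4a5 and Aqp1). Because the genes were chosen from these same values, the count describes the library and is not support. Prlr and Enpp2 fell just short, with gaps of 1.95 and 1.84 on that scale against the 2 log2 units required. The added 1 shrinks the gap of low genes, so Prlr missed although its FPKM ratio was 24.8-fold. The listed genes Col8a1 (45.2-fold), Trpv4 (10.1-fold), Sulf1 (7.25-fold) and Lmx1a (6.73-fold) missed in the same way. So did Steap1 (6.42-fold), Slc13a4 (5.40-fold) and Igfbp2 (4.18-fold). At 2-fold, 48 symbols (0.466%) included all 7 genes. Without replicate 1, the count at 4-fold was 25 symbols (0.243%), all 7 genes included. In replicates 3 and 4, 0 symbols of 10309 were 4-fold below every other library.

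**Figure D3:**
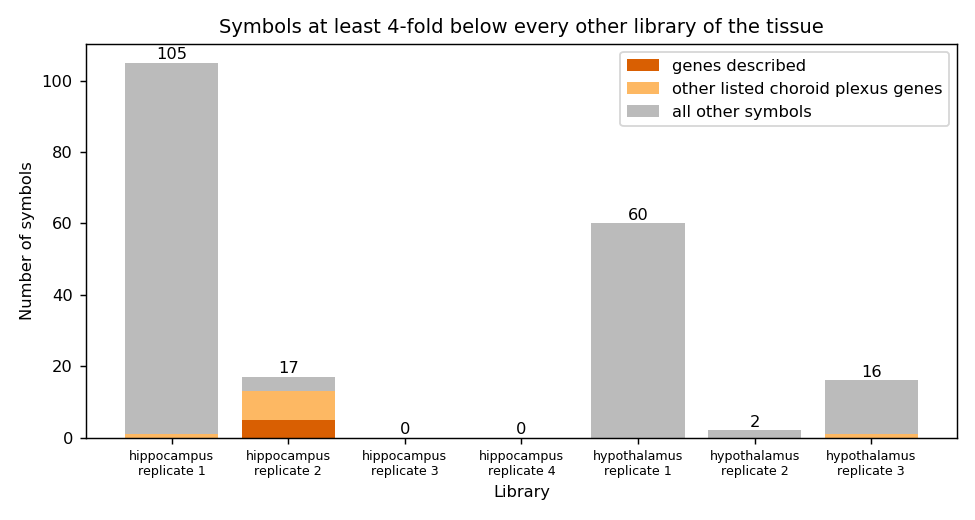
Number of symbols at least 4-fold below every other library of the tissue, 1 bar per library, with choroid plexus genes and other symbols marked. Hippocampus replicate 2 has 17, of which 5 are among the 7 genes described and 8 are other listed choroid plexus genes, while hippocampus replicate 1 has 105, or 17 with the loci of a symbol summed.

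The other 12 symbols in that count held 8 of 53 further choroid plexus genes from a list of 65. These were Kcnj13, an inward-rectifier potassium channel; Slco1a5, an organic anion transporter; Igf2, an insulin-like growth factor; Sostdc1, a secreted antagonist of BMP and WNT signals; F5, coagulation factor V; Tmem72; Ace, the angiotensin-converting enzyme; and Cldn2, a tight junction claudin. By role, they were 2 of 22 transport genes, 3 of 12 secreted proteins and carriers, 2 of 6 receptors and membrane proteins, 0 of 4 transcription factors and 1 of 9 junction and cytoskeleton genes. The remaining 4 symbols were Abca4, Lect1, Pla2g5 and Tmem27, named because their values put them there. Tmem27 read 4.92, 0.0975, 9.78 and 8.03 FPKM, and Abca4, a retinoid transporter, 5.42, 0.0901, 7.85 and 6.12 FPKM.

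Across all 53 further choroid plexus genes that passed the minimum, 35 had their lowest value in replicate 2, where 12.1% of all symbols did. In replicate 3, 41 of the 53 had their highest value, against 18.3% of all symbols. The median difference of replicate 2 from the mean of the other libraries was -0.94 on the log2 scale over the 53, -3.64 over the 7 genes and 0.03 over all symbols. The most abundant gene of each of the 5 roles was not 4-fold lower in replicate 2. The sodium pump subunit Atp1b1 read 1209, 1503, 1315 and 1499 FPKM, the membrane protein Bsg 607, 595, 666 and 478 FPKM, and the protease inhibitor Cst3 816, 547, 680 and 472 FPKM. Foxj1, a factor of ciliated cells that ependyma also expresses, read 54.9, 55.1, 53.2 and 47.4 FPKM. All 4 are also made by other brain cells. The most abundant junction and cytoskeleton gene, Cab39l, read 15.1, 13.1, 19.7 and 22.5 FPKM and was lowest in replicate 2, as were all 10 genes found of that role. Otx2 was listed at 0 in all 7 libraries. Whether a listed 0 in these data means no transcript or a locus not quantified was not tested.

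The genes whose hippocampal profiles lay nearest to the mean profile of the 7 were found by the root mean square difference of centred log2 values over the 4 libraries, among 7653 symbols whose mean reached 5 FPKM. Sostdc1 was nearest at 0.127, with 12.02, 0.0260, 25.3 and 15.1 FPKM, closer than any of the 7 genes themselves (Clic6 was nearest of these at 0.130 and Ttr farthest at 1.33). Cldn2 followed at 0.143 with 8.89, 0.000300, 20.6 and 9.80 FPKM. Kcnj13 was next at 0.293, with 29.2, 0.525, 57.6 and 26.9 FPKM, and F5 at 0.307 read 17.3, 0.245, 24.9 and 24.5 FPKM. That these 4 genes were low in replicate 2 follows from choosing them by profile. In hypothalamus, all of them but Kcnj13 read under 1 FPKM in each library. Kcnj13 lies within Gigyf2 in RefSeq and read 18.0, 20.4 and 21.1 FPKM in hypothalamus.

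Further down the order, Tmem27 lay at 0.502, Igf2 at 0.504, Pla2g5 at 0.543, Ace at 0.544, Igfbp2 at 0.678 and the sulfate transporter Slc13a4 at 0.682. Of these, Igf2 read 55.5, 5.14, 134 and 31.9 FPKM in hippocampus and 99.5, 240 and 41.1 FPKM in hypothalamus. Igfbp2, an insulin-like growth factor binding protein, read 110, 12.1, 281 and 50.7 FPKM and then 85.7, 196 and 38.0 FPKM. For Igf2 the highest hypothalamus library was thus above every hippocampus library, and for Igfbp2 the tissues overlapped. Of the 10, Igf2, Igfbp2 and Slc13a4 were the only ones with a hypothalamus library above 30 FPKM.

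**Figure D4:**
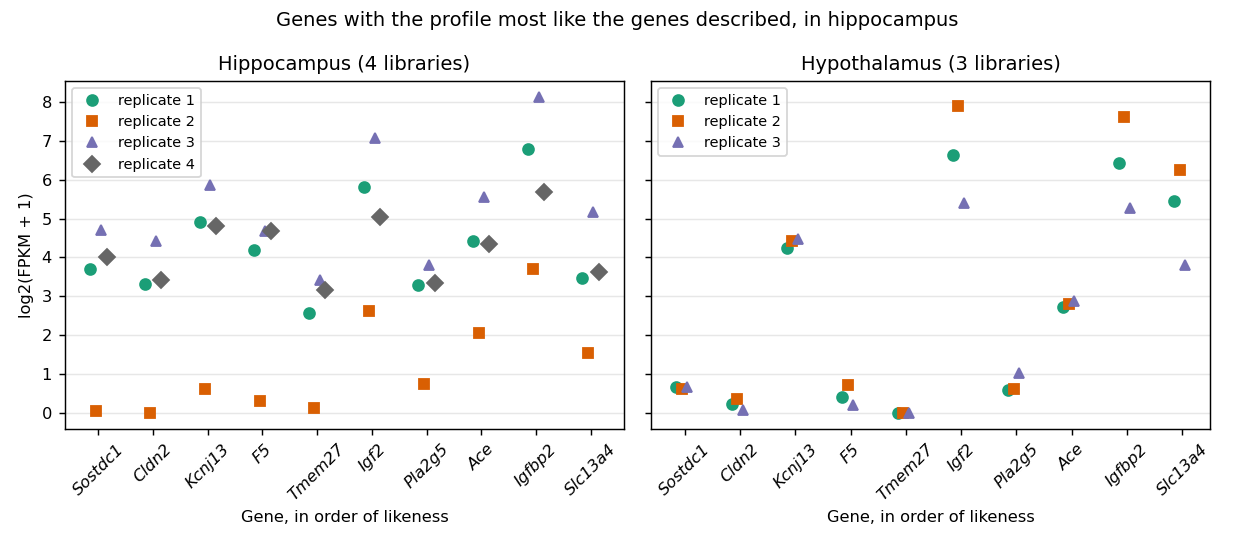
log2(FPKM + 1) of the 10 genes with hippocampal profiles nearest to the mean profile of the 7 choroid plexus genes, 1 point per library, in both tissues. In hippocampus replicate 2 is lowest for all 10, which follows from choosing them by profile. In hypothalamus Igf2 is highest, with 240 FPKM in replicate 2, while Sostdc1 reads at most 0.587 FPKM.

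Markers of cells next to the choroid plexus were read in the same libraries. The mean log2(FPKM + 1) of 13 meninges and fibroblast genes was 1.90, 1.60, 3.56 and 2.02 in hippocampus replicates 1 to 4, also lowest in replicate 2 and highest in replicate 3, and their summed level ran from 51.6 to 278 FPKM. Of these 13 genes, 10 passed the minimum, 7 were lowest in replicate 2, and Col1a2 and Ogn were listed at 0. Mural cell genes summed to 71.1, 153, 1029 and 138 FPKM, where Acta2, a smooth muscle actin, alone read 818 FPKM in replicate 3. The 8 ependymal genes found summed to 105, 111, 158 and 82.1 FPKM, so replicate 2 was above replicates 1 and 4. Neuronal, astrocyte, oligodendrocyte and microglial lists differed by at most 0.37 on the log2 scale between hippocampus libraries. The part of meninges, vessels or dissection in the levels of the 7 genes was not tested.

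**Figure D5:**
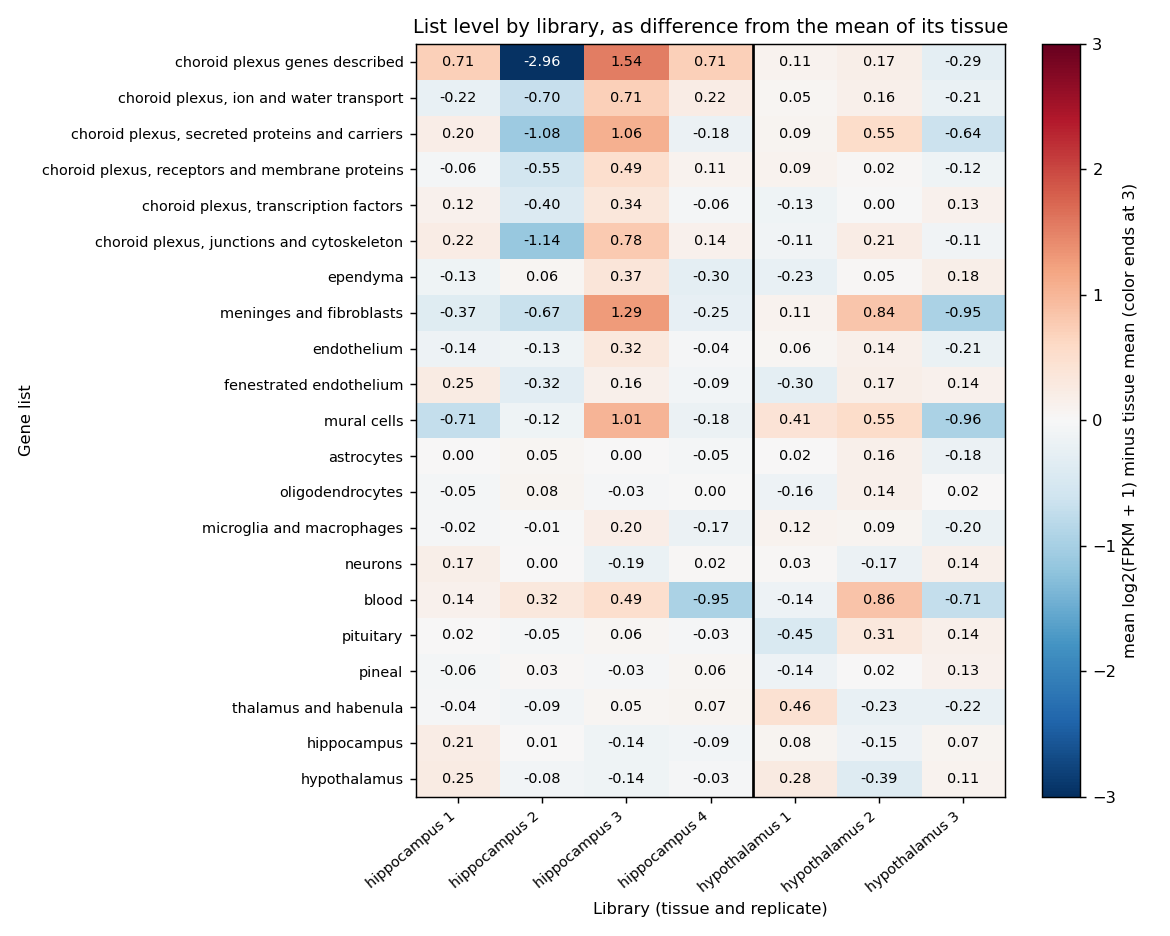
Mean log2(FPKM + 1) of each gene list minus its mean over the libraries of the tissue, 1 column per library, with the choroid plexus genes in the top row. In hippocampus replicate 2 that row is at -2.96, while the astrocyte, oligodendrocyte, microglial and neuronal rows stay close to 0.

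In hypothalamus the same genes were low and less spread. Ttr read 30.7, 44.4 and 8.25 FPKM in replicates 1 to 3, a mean of 27.8 ± 18.2 (SD, n = 3), with replicate 2 at 5.38 times replicate 3. Enpp2 read 124, 109 and 86.6 FPKM, a mean of 107 ± 19.0 (SD, n = 3). In every hypothalamus library Enpp2 was above Ttr, with Ttr at 0.247, 0.407 and 0.0952 times its level, as in hippocampus replicate 2.

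Among the transporters, Aqp1 read 2.35, 3.08 and 0.841 FPKM (2.09 ± 1.14, SD, n = 3), and replicate 2 was 3.66-fold above replicate 3. Slc4a5 read 0.562, 1.08 and 0.487 FPKM, and its mean of 0.709 ± 0.321 (SD, n = 3) left it under the minimum of 1 FPKM. Clic6 read 2.74, 2.80 and 3.18 FPKM (2.91 ± 0.236, SD, n = 3), the narrowest relative spread of the set. Replicate 3 was thus low in Aqp1, where replicate 1 was 2.79-fold above it, and not in Clic6. In Slc4a5 replicate 3 was lowest too, but replicate 1 was only 1.15-fold above it, under 1 FPKM.

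Of the receptors, Kl read 1.22, 1.48 and 0.921 FPKM (1.21 ± 0.279, SD, n = 3), and Prlr 1.79, 1.15 and 1.43 FPKM (1.46 ± 0.323, SD, n = 3). Folr1, the folate receptor alpha that carries folate into the cerebrospinal fluid, read 7.89, 5.98 and 9.53 FPKM (7.80 ± 1.78, SD, n = 3). By mean level Folr1 came directly after Enpp2 and Ttr in hypothalamus, and in replicate 3 it was above Ttr. Folr1 and Prlr were lowest in replicate 2, Clic6 in replicate 1, and the other 5 in replicate 3, so the 8 genes did not share 1 order of libraries there.

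By level, the order of mean FPKM in hypothalamus was Enpp2, Ttr, Folr1, Clic6, Aqp1, Prlr, Kl and Slc4a5. Enpp2 lay above Ttr, and Folr1 above Clic6, without overlap of their 3 libraries. The other neighbours in this order overlapped. In hippocampus the order was Ttr, Enpp2, Clic6, Kl, Slc4a5, Aqp1 and Prlr. There Enpp2 lay above Clic6 without overlap of their 4 libraries, and the other neighbours overlapped. Within each hippocampus library, however, Clic6 was above Kl, Kl above Slc4a5 and Aqp1 above Prlr. Ttr and Enpp2 changed order between libraries, as did Slc4a5 and Aqp1. Of the overlapping neighbours in hypothalamus, only Kl and Slc4a5 kept their order in every library. The median log2 range of the 8 genes in hypothalamus was 0.50, with Slc4a5 included although its mean missed the minimum. Over all 10757 symbols tested the median was 0.47 and the 95th percentile 1.26. Ttr, with 2.29, was above that percentile. At 4-fold, 0 of the 7 genes that passed the minimum were below every other hypothalamus library in replicate 3 (0.149% of symbols). At 2-fold 1 was, Ttr (0.985% of symbols).

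Of the 48 further choroid plexus genes tested in hypothalamus, 27 were lowest in replicate 3, where 31.6% of all symbols were, and 27 were highest in replicate 2, against 20.3% of all symbols. The meninges and fibroblast genes summed to 227, 446 and 92.9 FPKM in these libraries, in the order of Ttr and Aqp1, and mural cell genes to 491, 681 and 131 FPKM. Whether these cells bear on the hypothalamic values of Ttr and Aqp1 was not tested.

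Between the tissues, the 2 tables were treated as normalized separately, so each library was rescaled to the same sum over shared symbols and no test was run. To be called, a symbol needed no overlap between the tissues' libraries and a gap of at least 2-fold between the means of log2(value + 1). By that rule 0 of the 7 genes were called, where 14.5% of 10736 symbols were called higher in hippocampus and 13.4% higher in hypothalamus. With FPKM as deposited, 928 symbols were called higher in hippocampus and 1819 in hypothalamus, in place of 1560 and 1439, and again 0 of the 7 genes. For each gene 3 of the 4 hippocampus libraries lay above every hypothalamus library, and replicate 2 lay elsewhere. Replicate 2 was below every hypothalamus library for Kl, Clic6, Slc4a5, Aqp1 and Prlr, and within their range for Ttr and Enpp2.

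The differences of hippocampus minus hypothalamus means were 5.93 for Ttr, 3.35 for Kl, 3.04 for Slc4a5, 3.004 for Clic6, 1.97 for Enpp2, 1.92 for Aqp1 and 0.90 for Prlr on the log2 scale. Their median was 3.004, against 0.05 over all symbols. The SD among hippocampus libraries was 3.52 for Ttr, 2.32 for Aqp1 and 1.75 for Prlr, so for Aqp1 and Prlr the difference was smaller than that spread. Without hippocampus replicate 2, all 7 genes were called higher in hippocampus, beside 14.8% of symbols, with differences from 1.75 (Prlr) to 7.66 (Ttr) and a median of 4.14. Without hypothalamus replicate 1 Enpp2 alone of the 7 was called, beside 16.9% of symbols, and without hypothalamus replicate 2 Ttr alone, beside 14.3%. The call for these genes thus differed with the library left out, while all 7 differences were above 0 under every scaling tried.

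Further choroid plexus genes were compared between the tissues in the same way, against the 14.5% of all symbols called higher in hippocampus and 13.4% in hypothalamus. Of 21 transport genes, 3 were called higher in hippocampus (the bicarbonate transporter Slc4a10, the carbonic anhydrase Car12 and Slco1a5) and 1, the monoamine transporter Slc29a4, in hypothalamus. Car12 read 44.3 ± 10.9 FPKM (SD, n = 4) and 2.70 ± 0.443 FPKM (SD, n = 3). In hippocampus replicates 1 to 4 Slc4a10 read 49.7, 66.9, 62.5 and 80.6 FPKM and Car12 41.2, 37.6, 60.5 and 37.8 FPKM. Neither was thus 4-fold lower in replicate 2, unlike Slco1a5, which read 3.98, 0.0442, 6.04 and 4.58 FPKM. Which cells gave these levels was not tested. Among secreted proteins and carriers, Clu, Ecrg4 (listed as RGD1305645), Cst3 and Spint2 were called higher in hypothalamus. Clu, the secreted chaperone clusterin, read 544 ± 147 FPKM (SD, n = 4) in hippocampus and 1907 ± 248 FPKM (SD, n = 3) in hypothalamus. Receptors gave 1 of 7 called, Perp in hippocampus, transcription factors Foxj1 in hippocampus and Zic1 in hypothalamus of 4, and junction genes Sulf1 in hypothalamus of 10. With FPKM as deposited Slco1a5 and Perp were not called, and the other genes named here were. Marker lists of neighbouring tissue also had genes called higher in hypothalamus, 5 of 7 tested for ependyma (list median -1.35), 4 of 4 for pituitary and 4 of 6 for thalamus and habenula. Their part in the hypothalamic levels of choroid plexus genes was not tested.

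Genes that act with the 7 were read from 5 lists, and their calls between tissues also stand beside 14.5% of all symbols for hippocampus and 13.4% for hypothalamus. Among 6 genes of thyroid hormone and retinol handling, 2 were called higher in hippocampus, the deiodinase Dio2 and the receptor Thra, and 0 in hypothalamus. Rbp4, the retinol-binding protein that Ttr carries, read 7.80, 10.7, 33.6 and 6.57 FPKM in hippocampus and 117, 188 and 43.0 FPKM in hypothalamus. On the deposited scale the lowest hypothalamic Rbp4 value was thus above the highest hippocampal one. After rescaling the tissues overlapped for Rbp4, and it was not called. Ttr was higher in hippocampus, except in replicate 2, whose 31.9 FPKM lay within the hypothalamic range.

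Of 3 klotho partners tested, the FGF receptor Fgfr1 was called higher in hippocampus, at 61.2 ± 10.3 (SD, n = 4) against 31.3 ± 5.62 FPKM (SD, n = 3). Fgf23, the klotho ligand, read at most 0.118 FPKM in any library. For autotaxin's product, 1 of 6 genes tested, the receptor Lpar2, was called higher in hypothalamus, and the receptor Lpar1 read 36.1 to 46.3 FPKM in hippocampus and 28.1 to 34.7 FPKM in hypothalamus. Lpar1 was thus level across the 4 hippocampus libraries in which Enpp2 differed 8.19-fold.

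Prolactin itself (Prl) was listed at 0 in all 7 libraries. In hypothalamus the pituitary markers Cga, Pou1f1, Lhb and Tshb had means of 178, 20.4, 10.1 and 8.04 FPKM, and Gh1 one of 0.0992. As for Otx2, whether the 0 of Prl means no transcript was not tested. Of 5 prolactin signalling genes tested, the kinase Jak2 was called higher in hippocampus and the transcription factors Stat5a and Stat5b higher in hypothalamus. Stat5b read 7.92 ± 1.21 FPKM (SD, n = 4) and 25.8 ± 2.70 FPKM (SD, n = 3). Of 6 folate genes tested, Shmt1 was called higher in hippocampus and Aldh1l1, also an astrocyte marker, higher in hypothalamus. Folr2, a second folate receptor, read 1.73, 3.005 and 2.03 FPKM in hypothalamus, below Folr1 in each library. Under all 4 scalings tried, only Stat5b and Aldh1l1 of these 9 called partner genes kept their call, while none of the 9 changed the sign of its difference.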

How the data were processed

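Each library holds poly-A RNA of 1 tissue sample sequenced on an Illumina HiSeq 2000, per the labels' protocols. The authors deposited FPKM per locus, 1 table per tissue, with a status word (another kind of value) beside each FPKM, per the file headers. The submitters' processing notes name TopHat, TopHat2, Bowtie, Bowtie2, Cufflinks, Cuffdiff and the build rn5, with no role or order. Annotation and strand use are not given in the sources used here.

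The 8 genes, their partner and marker lists and the rules were chosen with earlier results of these data known. Loci were left out where any library's status was not OK (86 in hippocampus, 24 in hypothalamus). For each symbol the locus with the highest mean was used. The tables share 10839 locus numbers, of which 58 carry the same symbol in both, and were treated as separate quantification runs, joined by symbol.

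Values were compared as log2(FPKM + 1), over symbols whose mean reached 1 FPKM. Ratios between libraries used no pseudocount. Between tissues, libraries were rescaled to a sum of 1000000 over shared symbols. Calls between tissues needed a 2-fold difference and no overlap, and calls of 1 library a 4-fold gap to every other library. No test between groups was run, since each table is a single group and the tables were treated as normalized separately, and so there are no p-values. Dixon's gap ratio was used only to mark libraries for a closer look. Genes named are the 8, the 10 nearest profiles, all symbols 4-fold below the rest in hippocampus replicate 2, and list genes; any other was named after its values were seen. For 1 listed gene no value is reported here. FPKM carries no fragment counts, so depth is unknown and no counting interval was computed. The scripts (Python 3.11.15, pandas 2.3.3, numpy 2.4.6) were tested on simulated data. Alternatives were pseudocounts of 0.1 and 5, summed loci, median-ratio and upper-quartile scaling, other filters, a 2-fold gap and each library left out.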

Additional observations from a re-analysis of the deposited data

Results flagged for a closer look

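In hippocampus, 43 sets of 4 values were examined for a library whose gap to its nearest neighbour, divided by the whole range, was above Dixon's 95% critical value for 4 libraries. Chance gives such a gap in about 1 in 20 sets of unselected values. The 7 genes and the 10 of like profile among these sets were chosen from these same libraries, so that rate cannot be read against the 4 found, and the gaps are a description. Kl was lowest in replicate 2 with a gap of 0.8411 of its range. Among genes picked for a like profile, F5 in replicate 2 had a gap of 0.8864 and Pla2g5 in replicate 2 one of 0.8313. The list of klotho and FGF receptors was lowest in replicate 4, with a gap of 0.9408, where its mean log2(FPKM + 1) was 3.15, 3.17, 3.16 and 2.87 in replicates 1 to 4.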

How the results depend on the processing

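Of the recomputed values of the main comparisons, 41 stayed within the spread between libraries or within 1.5 times the reported count and 11 moved, the latter given here. All 91 recomputed differences of single genes between the tissues kept their sign and moved by less than the SD among libraries, which is wide in hippocampus: without hippocampus replicate 2 Ttr went from 5.93 to 7.66 and Prlr from 0.90 to 1.75, and without replicate 3 Prlr went to 0.44. Of the counts for single libraries that are not main comparisons 156 stayed and 32 moved. The range over libraries of the mean over the genes, 4.49 in hippocampus on the log2 scale, was 0.83 to 4.49 when each library was left out in turn, lowest without replicate 2. In hypothalamus the range of 0.46 was 0.059 to 0.46, lowest without replicate 3. The number of genes called between tissues, 0 with all libraries, was 0 to 7, with 1 without hypothalamus replicate 1 or 2 and 7 without hippocampus replicate 2. The 17 symbols 4-fold lower in hippocampus replicate 2 became 38 with a pseudocount of 0.1, 5 with one of 5 and 48 at 2-fold, and 17 to 25 with a library left out. Of these, the further choroid plexus genes went from 8 to 15, 2 and 15, and 8 to 11. The shift with pseudocount and fold follows from how the rule is built. Without replicate 2 that count has no value. Among the 7 genes, 6 passed with a pseudocount of 0.1 and 3 with one of 5. With FPKM as deposited the median of all symbols between tissues was -0.21 against 0.05, and upper-quartile and median-ratio scaling called 1172 and 1304 symbols higher in hippocampus and 1427 and 1283 in hypothalamus. Pseudocounts for ratios were chosen after seeing the data and left the 1.95 range of replicate 1 over replicate 4 within 0.01. No paired analysis was possible because no result comes from a test and nothing ties replicate numbers of the tissues to the same animals. With 4 and 3 libraries and unknown depth, values below about 0.1 FPKM carry little weight.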
